A study of Solanum lycopersicum with 9 samples.

Results

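Carbonic anhydrase transcripts were followed through 4 stages of tomato fruit ripening on microarrays. The genes were taken by symbol, as every gene whose symbol in the array's annotation is ca followed by 1 digit. This gave 3 of 21326 gene symbols, ca1, ca2 and ca3, each read by 1 probe set (20322548, 20265025 and 20270580). The gene ca3 was put forward because the study's supplementary material lists it among the largest rises at red ripe and describes it there as a carbonic anhydrase. It was thus chosen by its stage values on these arrays, above all by the change between breaker and red ripe, and those values are given below as a description without a test. For ca1 and ca2 the tables at hand give the symbol and no description, and RefSeq assembly SLM_r2.1 carries ca1 as a synonym of LOC543802. These genes are therefore called by their symbols, and whether ca1 and ca2 encode carbonic anhydrases could not be checked from the data. RefSeq places ca2 and ca3 on the same chromosome and ca1 on another.

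Carbonic anhydrases are zinc enzymes that interconvert CO2 and bicarbonate, a reaction that also runs slowly without them. Plants hold several unrelated families of the enzyme, in chloroplasts, the cytosol, mitochondria and outside the cell. In leaves the enzyme is abundant beside Rubisco, and elsewhere it supplies bicarbonate to carboxylases such as phosphoenolpyruvate carboxylase. In fruit, chloroplasts turn into chromoplasts during ripening, while respiration and the breakdown of malate release CO2 in the tissue.

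RNA came from pericarp, according to the labels, of wild-type fruit grown in a hydroponic greenhouse. The methods name the cultivar Ailsa-Craig, speak of fruit tissue, and in the account of the hybridization name abscission zones of the fruits. The groups were breaker and turning (2 arrays each), pink (2 arrays) and red ripe (3 arrays), all untreated and told apart by skin colour and development, and their ages were not given. The replicates are called independent, but how many fruits or plants each one pooled is not stated in the sources used here, so that p-values speak for the spread among these arrays and no more.

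Values are log2 signals made by the authors with RMA, which corrects background, normalizes the arrays and summarizes the probes of a set. The median of all 67795 probe sets lay between 1.78 and 2.01 on the 9 arrays, and signal near it cannot be told from background. The ninetieth percentile was 4.17 and 4.51 at turning and 4.40 and 4.55 at pink. It was 5.09 and 5.15 at breaker and 5.24 to 5.43 at red ripe. The arrays thus did not share 1 distribution, and falls at turning or pink and rises to red ripe are to be read beside this difference. The ripening genes PG2, a polygalacturonase of the cell wall, and Cel2, an endoglucanase, increased in mean signal at each stage, from 9.29 and 6.36 at breaker to 11.33 and 10.60 at red ripe. The other matched ripening genes did not: Psy1, the phytoene synthase of fruit, had 9.43 at breaker, 8.29 at turning (called lower, adjusted p = 0.00645 in limma), 9.27 at pink and 10.16 at red ripe, and the lipoxygenase LOX1.1 fell from 8.88 at breaker to 5.59 at red ripe (adjusted p = 2.72e-05). A low signal is not always a low transcript: ACO1, an ACC oxidase known for its abundance in ripening fruit, had stage means from 1.45 to 1.71. Stages were compared in 1 limma model of all arrays, and a call needed both a fold change over 2 and a Benjamini-Hochberg adjusted p under 0.05. The number of arrays limits the precision of every value.

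The 3 genes had 3 different profiles. The signal of ca3 lay at background through breaker, turning and pink and was high on every red ripe array, ca1 had a clear signal at all stages, and ca2 stayed at background throughout.

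The gene ca3 had signals of 1.49 and 1.46 on the breaker arrays, 1.85 and 2.19 at turning, and 1.68 and 1.44 at pink. On the red ripe arrays it had 8.70, 8.70 and 8.49. The 6 earlier arrays thus lay between 1.44 and 2.19, and no red ripe array came near them. Breaker had a mean of 1.48 ± 0.02 (SD, n = 2), turning of 2.02 ± 0.24 (SD, n = 2), pink of 1.56 ± 0.17 (SD, n = 2) and red ripe of 8.63 ± 0.12 (SD, n = 3). Red ripe was above breaker by 7.16 on the log2 scale (standard error 0.16), which is 143-fold on the linear scale. Red ripe was above pink by 7.07 (standard error 0.16), so the whole difference falls between the last pair of stages. Because ca3 was near background before red ripe, these folds are at best lower bounds.

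**Figure D1:**
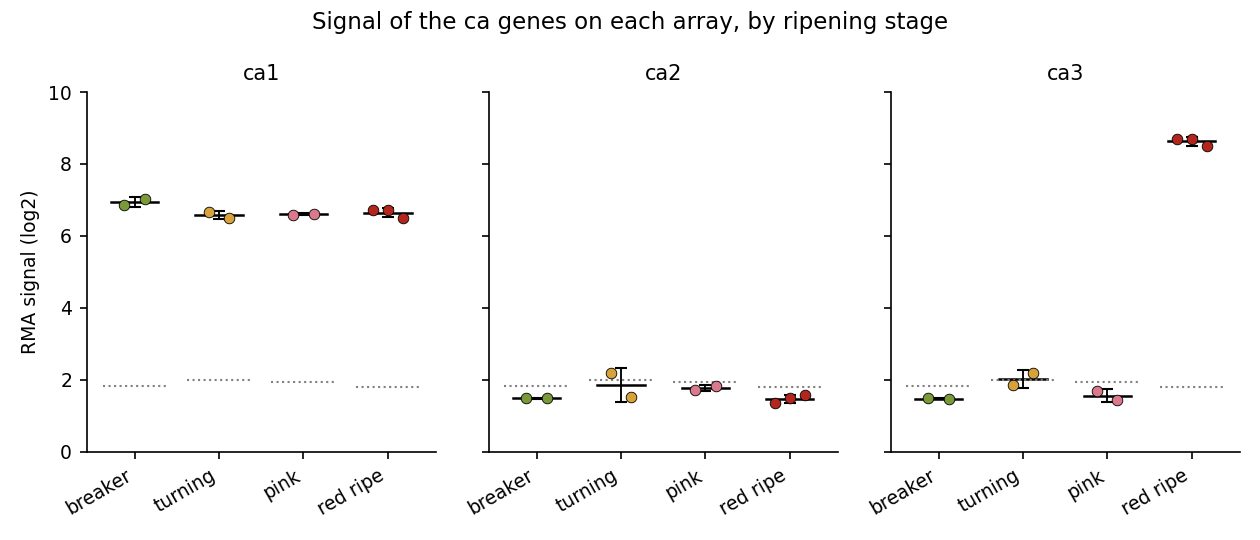
RMA signal (log2) of ca1, ca2 and ca3 at each ripening stage; points are single arrays, black bars are stage means with their SD, and dotted grey lines are the mean of the array medians over all probe sets. The red ripe points of ca3 sit between 8.49 and 8.70, while its other points and all points of ca2 lie at 2.19 or less, and ca1 keeps between 6.50 and 7.03.

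Before red ripe ca3 exceeded 14.3% to 58.2% of the probe sets on its array, and at red ripe it exceeded 98.9% to 99.1%. The difference between turning and breaker was 0.54 on the log2 scale (standard error 0.17), between values that all lay near background. The array medians themselves differed in the same direction there, since over all probe sets the median log2 difference between turning and breaker was 0.12. Relative to the median of its own array, ca3 stood at -0.35 and -0.36 at breaker, at -0.13 and 0.18 at turning, and at -0.27 and -0.50 at pink. At red ripe it stood at 6.87, 6.92 and 6.67, so that scaling left the contrast in place.

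Among all 67795 probe sets, the difference between red ripe and breaker was the second largest for ca3 (rank 2). The distance from the highest earlier array to the lowest red ripe array, 6.30 for ca3, ranked at 1, with 5.50 for the probe set after it. A distance above 0 was found for 5575 probe sets, of at least 2 for 140 and of at least 4 for 15. These ranks describe the values that brought ca3 to notice and test nothing.

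The gene ca1 had signals of 6.85 and 7.03 at breaker, 6.65 and 6.50 at turning, 6.58 and 6.62 at pink, and 6.72, 6.72 and 6.50 at red ripe. Both breaker arrays were the highest of the 9, and the later stages overlapped each other. The log2 fold change against breaker was -0.37 at turning, with a 95% interval of -0.71 to -0.02 and an adjusted p = 0.161 in limma. It was -0.34 at pink (interval -0.68 to 0.00, adjusted p = 0.226) and -0.29 at red ripe (interval -0.60 to 0.02, adjusted p = 0.459). From pink to red ripe, the step in which ca3 differed, ca1 differed by 0.05 (interval -0.26 to 0.36, adjusted p = 0.866). A fold change over 2 in either direction, which is 1 on this scale, lay outside each of these intervals. After quantile normalization of the deposited values the sign turned at turning (0.04) and from pink to red ripe (-0.50, adjusted p = 0.0424), so no direction is given for ca1.

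On the deposited scale few probe sets of like signal varied less than ca1. The range of ca1 over the 9 arrays was 0.53, against a median of 1.48 for the 1593 other probe sets whose mean signal lay within 0.5 of its own. Of those probe sets 3.01% had a range as small as that of ca1 or smaller. After quantile normalization ca1 ran from 6.21 to 7.01, with the red ripe arrays at 6.21 to 6.35 below all others, and the comparison with other probe sets was not repeated on that scale.

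The gene ca2 had signals of 1.5 and 1.48 at breaker, 2.18 and 1.52 at turning, 1.71 and 1.82 at pink, and 1.36, 1.48 and 1.57 at red ripe. A single turning array stood above the median of its array, both pink arrays were above the breaker and red ripe arrays, both turning arrays were above the breaker arrays, and the remaining pairs of groups overlapped. Red ripe differed from breaker by -0.02 (interval -0.46 to 0.42, adjusted p = 1.00 in limma), turning by 0.36 (adjusted p = 0.313) and pink by 0.28 (adjusted p = 0.501). From pink to red ripe the log2 fold change was -0.30 (adjusted p = 0.374). Near background these values limit neither the level nor a change of the transcript.

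By the call rule 0 of the 3 genes passed at turning and 0 at pink, where 8.28% and 6.79% of all probe sets were called in limma. Of ca1 and ca2, 1 had an unadjusted p under 0.05 at turning and 0 at pink. At red ripe 1 of the 3, ca3, was past the rule against breaker and against pink, where 2.73% and 9.10% of probe sets were called. Since ca3 was chosen for that change, its call is no result, and of the other 2 genes 0 passed and 0 had an unadjusted p under 0.05 in either comparison. The share of all probe sets with an unadjusted p under 0.05 was not counted, so the unadjusted counts are not read as a result about the genes. With a test of each probe set on its own pair of stages, without pooling the spread, neither ca1 nor ca2 was called in any of the 4 comparisons, since neither passed the fold threshold.

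Several further genes had the profile of ca3, with signal near background until red ripe. Of 2652 probe sets with 1 gene symbol and stage means spanning at least 2 on the log2 scale, 245 had a Pearson correlation with ca3 of 0.9 or more over the 9 arrays. With 6 arrays low and 3 high, any gene that is high at red ripe alone correlates in this way, and all points share their arrays. The 5 highest were LOC101262767 (r = 0.998), LOC101256944 (r = 0.996), LOC101248320 (r = 0.994), LOC101250247 (r = 0.994) and LOC101264771 (r = 0.994), of which RefSeq lists the last as a pseudogene.

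LOC101262767 had signals of 1.46 to 2.02 on the 6 earlier arrays and 6.43, 6.25 and 6.45 at red ripe. LOC101248320, a histidine decarboxylase in the study's annotation, had 1.28 and 1.15 at breaker, 1.47 and 1.57 at turning, 1.81 and 1.90 at pink, and 7.12, 6.91 and 6.63 at red ripe. Its arrays before red ripe were ordered by stage without overlap, which those of ca3 were not. All of these values lay below the medians of their arrays, so the order is not read as a change. LOC101250247 went from 1.57 to 2.14 on the earlier arrays to 5.71, 5.63 and 5.67, and LOC101264771 from 1.21 to 1.57 to 4.41, 4.57 and 4.33. LOC101256944 had 1.49 to 1.81 and then 3.85, 4.13 and 3.86. Like ca3, these 5 genes were chosen by this profile, so that their red ripe arrays stand apart is no result.

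**Figure D2:**
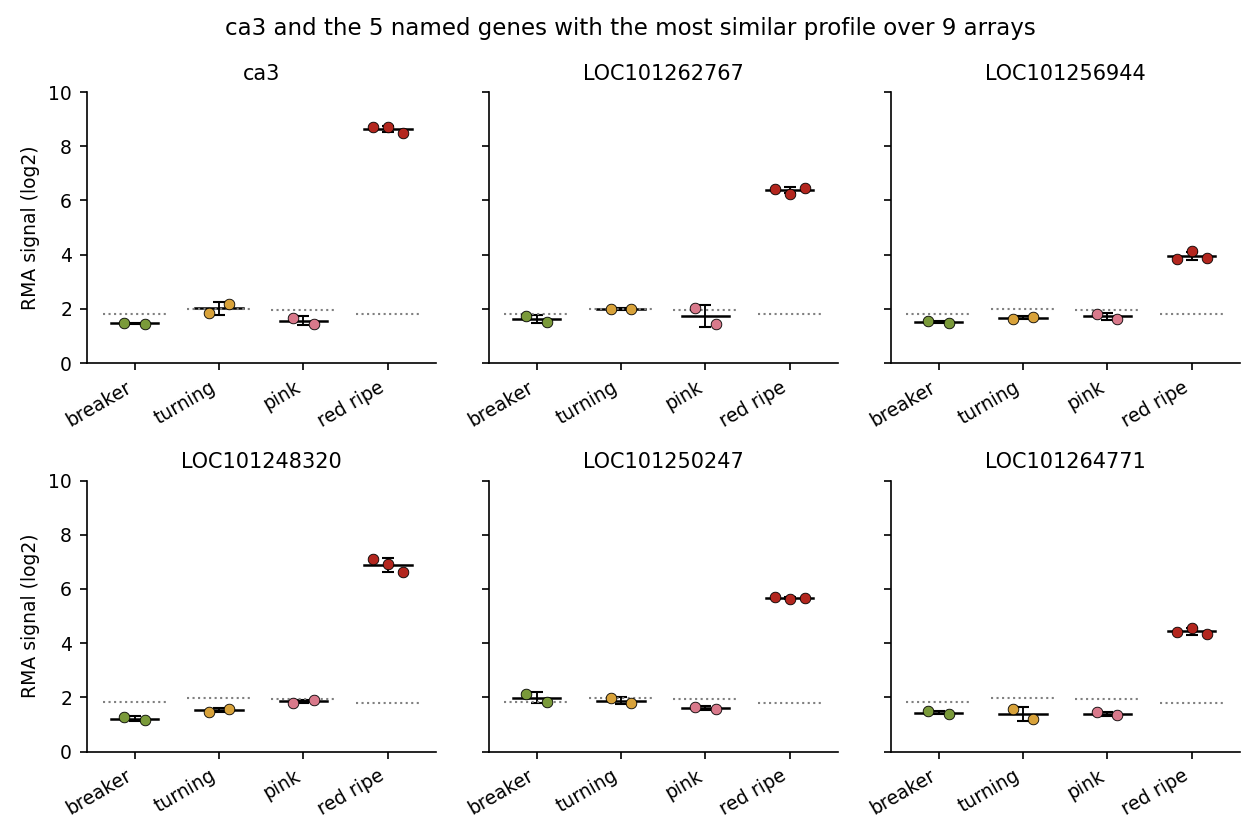
RMA signal (log2) by stage of ca3 and of the 5 probe sets with a single gene symbol whose profile over the 9 arrays correlated most with it; points are single arrays, bars are stage means with SD, and dotted lines are the mean array medians. Each gene is at or near the dotted line up to pink, and the red ripe means run from 3.95 for LOC101256944 to 8.63 for ca3.

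The genes beside ca3 on the chromosome had other profiles. Of the 5 protein-coding genes on either side in RefSeq order, a set chosen after their values had been seen, 9 of 10 had a probe set, and MYB21, next to ca3 on the other side from LOC101258818, had none. The directly adjacent LOC101258818 had signals of 3.09 and 3.65 at breaker, 3.03 and 2.84 at turning, 3.09 and 2.89 at pink, and 3.81, 3.68 and 3.69 at red ripe. It was the highest at red ripe, but by 0.36 over breaker (standard error 0.18, adjusted p = 0.537 in limma) and by 0.74 over pink (adjusted p = 0.0254), under the fold threshold. The 9 neighbours had log2 fold changes of -1.57 to 0.36 between red ripe and breaker, with 0 called higher and 1 lower, where 1.49% and 1.24% of all probe sets were called. The gene that fell was LOC101259704, from 5.30 and 5.61 at breaker to 4.37, 3.43 and 3.87 at red ripe (-1.57, standard error 0.28, adjusted p = 0.0174). Leaving out either breaker array, or red ripe replicate 2 or 3, ended that call (adjusted p from 0.050 to 0.173). Most of the other neighbours were near background.

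**Figure D3:**
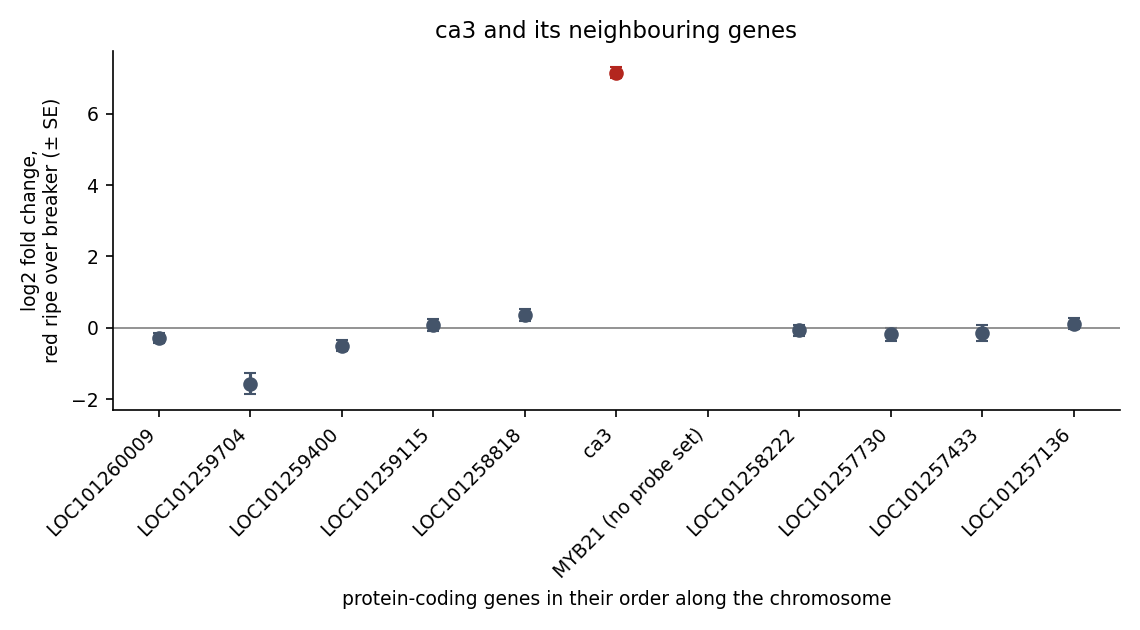
Log2 fold change of red ripe over breaker with its standard error for ca3 and the protein-coding genes on either side of it in RefSeq order; MYB21 has no probe set and no point. The point of ca3 stands at 7.16 and those of the 9 measured neighbours between -1.57 and 0.36.

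Genes for enzymes that use or release CO2 or bicarbonate had profiles of several kinds. Of 9 listed genes of CO2 release and malate metabolism 6 could be matched. Of these 0 rose against breaker at turning, pink or red ripe, where 1.46%, 1.25% and 1.49% of all probe sets were called higher. At turning 2 fell, where 6.82% of all probe sets were called lower, at pink 1 (5.54% of all) and at red ripe 2 (1.24% of all). From pink to red ripe 1 rose and 2 fell, where 7.78% of all probe sets were called higher and 1.32% lower. The median log2 fold changes of the 6 were -0.37, -0.50, -0.47 and -0.11 in the same order, beside 0.12, 0.09, 0.01 and -0.10 for all probe sets. Leaving out pink replicate 2, 2 of the 6 fell at pink.

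The glutamate decarboxylase GAD1 (LOC544313), which releases CO2 from glutamate to form GABA, fell at the step in which ca3 differed. Its signals were 9.85 and 9.82 at breaker, 9.69 and 9.77 at turning, 9.79 and 9.81 at pink, and 8.66, 8.51 and 8.58 at red ripe. It fell by 1.25 from breaker to red ripe (standard error 0.12, adjusted p = 6.05e-04 in limma) and by 1.22 from pink (adjusted p = 2.13e-04), with no overlap between red ripe and any other stage. GAD2 had means of 2.65 at breaker and 1.74 at red ripe (adjusted p = 0.0695), and GAD3 stage means of 1.57 to 1.94.

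The malate dehydrogenase gene mdh, whose enzyme interconverts malate and oxaloacetate, had 7.35 and 7.15 at breaker, 5.72 and 5.96 at turning, 6.42 and 6.23 at pink, and 5.50, 4.86 and 5.33 at red ripe. It was highest at breaker and lowest at red ripe, and it fell by 1.41 at turning (adjusted p = 0.00353) and by 2.02 at red ripe (standard error 0.20, adjusted p = 7.54e-04). After quantile normalization the fall at turning was 0.92 in size and under the fold threshold. From pink to red ripe mdh fell by 1.09, and by 0.91 without red ripe replicate 2 and 1.00 without pink replicate 1, which is not over the fold threshold. The call for that step held under 16 of 20 alternative settings. Of these 16, 1 repeats the main fit, and leaving out a breaker or turning array does not alter the difference itself.

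The NADP-malic enzymes, which release CO2 from malate, differed from each other. ME2 had 8.85 and 8.74 at breaker, 6.51 and 6.09 at turning, 6.09 and 6.72 at pink, and 9.10, 8.89 and 8.76 at red ripe. It fell by 2.50 at turning (adjusted p = 2.95e-04) and fell by 2.39 at pink (adjusted p = 4.30e-04), rose by 2.51 from pink to red ripe (standard error 0.22, adjusted p = 1.08e-04, and 0.0534 in a test without pooled spread) and ended 0.12 above breaker (adjusted p = 1.00). ME1 kept means of 8.20 to 8.98, with a log2 fold change of 0.55 at red ripe against breaker (standard error 0.14, adjusted p = 0.0692) and of 0.78 against pink (adjusted p = 0.00465), under the fold threshold.

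Among 7 listed genes for carboxylases that take bicarbonate, or for the kinases that regulate them, PPCK2 alone could be matched. PPCK2, a kinase that phosphorylates phosphoenolpyruvate carboxylase, had 6.75 and 7.64 at breaker, 3.75 and 4.62 at turning, 6.18 and 6.09 at pink, and 7.17, 7.05 and 7.40 at red ripe. The turning arrays lay below all others, and PPCK2 fell by 3.01 there (standard error 0.34, adjusted p = 6.46e-04). That call was lost in a test without pooled spread (adjusted p = 0.293). Red ripe differed from breaker by 0.01 (interval -0.69 to 0.71, adjusted p = 1.00), a value that was -0.43 without breaker replicate 1 and 0.46 without breaker replicate 2. The call from pink to red ripe (1.07, adjusted p = 0.0485) did not survive leaving out any 1 red ripe or pink array (adjusted p from 0.0947 to 0.164) and is not counted here as a rise. At pink the log2 fold change against breaker was -1.06 (adjusted p = 0.0917), which passed without breaker replicate 1 (adjusted p = 0.0480) or either turning array (adjusted p = 0.0442).

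The small-subunit genes of Rubisco that could be matched, RBCS-1 and RBCS-2A, were near background at all stages, with means of 1.77 to 2.38 and of 1.23 to 1.57. Neither was called in any comparison (adjusted p from 0.220 to 0.943 in limma). No plasma membrane aquaporin of the PIP group could be matched.

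**Figure D4:**
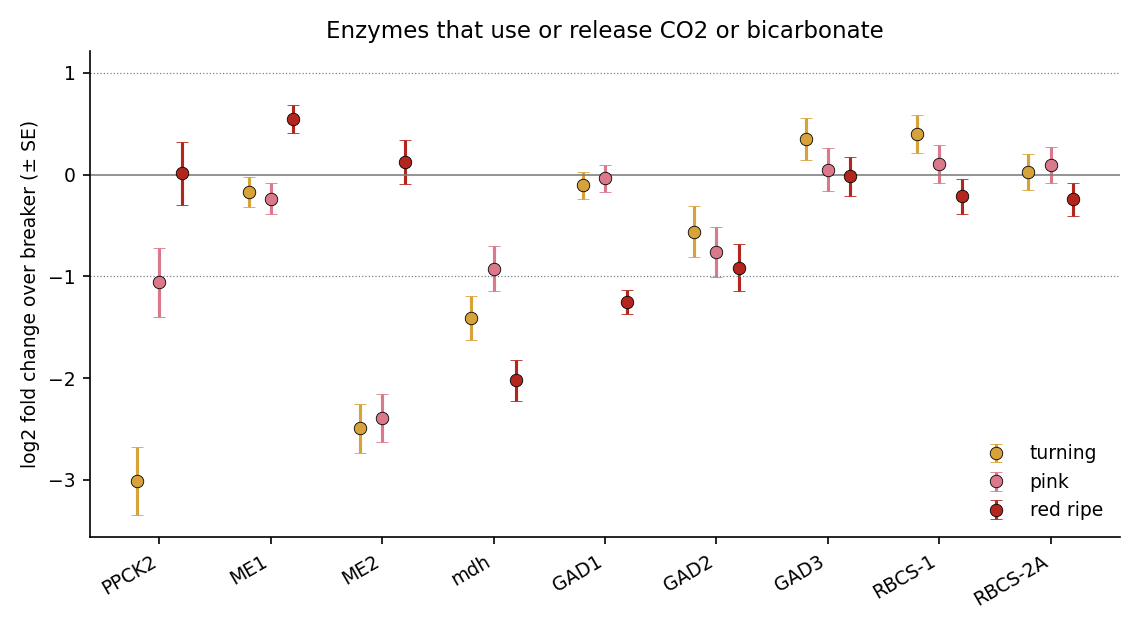
Log2 fold change over breaker with its standard error at turning, pink and red ripe for matched genes of enzymes that use or release CO2 or bicarbonate; dotted lines mark a fold change of 2. PPCK2 and ME2 lie below -2 at turning and at 0.01 and 0.12 at red ripe, whereas mdh and GAD1 are lowest at red ripe.

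Some markers of other tissue also differed at red ripe. Both matched epidermis genes of 4 listed, the cuticle regulator CD2 and the flavonoid regulator MYB12, were lowest there. The sum of their linear signals was 19.5 to 23.2 at red ripe against 75.2 to 81.9 at breaker, 185 to 196 at turning and 83.5 to 89.3 at pink. At turning the genes went opposite ways against breaker. CD2 was called higher (1.86, adjusted p = 1.14e-04 in limma) and MYB12 lower (-1.395, adjusted p = 0.00708), so the sum there does not stand for both. Of 7 listed abscission zone genes 4 were matched and 0 of them were called at red ripe, where 2.73% of all probe sets were, with summed signals of 43.7 to 70.2 against 44.2 to 136 at breaker. Cel1, an abscission cellulase, was called lower at turning (-3.03, adjusted p = 0.00508), and TAPG2, TAPG4 and cel5 were near background. Of 3 matched green plastid genes 1, CAB4, was called lower at red ripe against breaker (-2.45, adjusted p = 6.80e-04 in limma), where 1.24% of all probe sets were. CAB4 was called lower at turning (-2.31) and pink (-2.39) too, and red ripe differed from pink by -0.07 (adjusted p = 0.891). RBCS-1 and RBCS-2A were near background. The part of these markers in the values of ca3 was not tested. In whole tissue, a change in the share of a cell type and a change in RNA per cell cannot be told apart.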

How the data were processed

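All 9 hybridized arrays were used. The authors made the deposited log2 signals from TomGene ST 1.1 strips with RMA in Expression Console. Transcriptome Analysis Console 2.0 is listed in the submitters' processing notes as well. The genome build behind the array's annotation is not given in the sources used here, so no coordinates are printed. RMA compresses differences near background, so folds from low signals understate change.

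Stages were compared with limma 3.58.1 in R 4.3.3 (1 mean per stage, no block, eBayes without trend, 5 residual and 3.65 prior degrees of freedom) in 4 comparisons, with Benjamini-Hochberg adjustment over all 67795 probe sets and no filter. The script was first tested on simulated data with known changes. The spread is pooled over stages, but limma's array weights (0.40 for turning, 0.57 for pink, 2.21 for breaker) were low at the middle stages, so errors there may be too small.

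Members and gene lists were chosen with earlier results of these data known. A gene with several probe sets was read by that of highest mean; all 3 ca genes have 1. Of each list the 3 members with the smallest adjusted p at red ripe were named, ME2 and the remaining GAD genes being added after their values were seen, and the 5 genes most like ca3. Names were matched by symbol or RefSeq synonym. Gene descriptions were at hand only for genes in the study's supplementary lists and not for the whole array, so further carbonic anhydrases under other symbols were not identified. The symbol pip1 was not read as an aquaporin because RefSeq keeps it apart from those genes. Alternatives were a replicate block, each array left out, median centring, quantile normalization, a filter on the lowest 33.3% of probe sets, array weights, an intensity trend with robust moderation, only the stages compared, the methods' threshold on unadjusted p, a test without pooled spread on each probe set's own pair of stages (the methods name no test), and the mean of a gene's probe sets. That mean was not computed, and the main fit was entered for it because each ca gene has 1 probe set. Further probe sets of the other genes were therefore not checked.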

Additional observations from a re-analysis of the deposited data

How the results depend on the processing

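The count of ca genes called was the same under all 20 alternatives in each of the 4 comparisons. Many alternatives leave the fold changes of ca1 and ca2 as they were, and 1 repeats the main fit. Those of ca1 ran from -0.55 to 0.18 and those of ca2 from -0.35 to 0.69, under the fold threshold. The unchanged count therefore carries little weight. In both red ripe comparisons the count of 1 was ca3, which was chosen for that change, so that its call held is no result. The difference of ca3 between red ripe and breaker was 7.02 after quantile normalization, and that between red ripe and pink 7.21 after median centring, each a move larger than the spread of the red ripe arrays. Leaving out single arrays gave 7.12 to 7.23 and 6.95 to 7.19. For ca1 quantile normalization turned the sign at turning (0.0403) and from pink to red ripe (-0.50). For ca2 the difference between red ripe and breaker ranged from -0.07 to 0.035 when single arrays were left out, with the sign turned without red ripe replicate 1, and was 0.00 after median centring. The filter on low signal removed ca2. The mean of all probe sets changes nothing for genes with 1 probe set. With the replicate block the fold change of ca1 at red ripe was -0.22 and no ca gene changed its call, but PPCK2 lost its call from pink to red ripe (adjusted p = 0.0951). Differences between replicates 1 and 2 correlated across stages by 0.00 to 0.07 over all probe sets, which gave no sign of pairing. Many of those probe sets lie near background, so this cannot exclude pairing. The block leaves red ripe replicate 3 without weight. Of the 6 genes of CO2 release and malate metabolism, a test of each probe set on its own pair of stages, with Benjamini-Hochberg adjustment and no pooled spread, called 0 at turning, pink and red ripe against breaker and 1 from pink to red ripe. The share of all probe sets called by that test was not counted, so these counts are not read as a result about the 6 genes. Closeness to background, read as signal near the array medians of 1.78 to 2.01, limits what can be read of ca2 at all stages and ca3 before red ripe.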
